A study of Mus musculus with 14 samples.

Results

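The genes of the proteasome were followed in the cortex of mice with and without Fmr1, which encodes FMRP, a protein that binds mRNA. They were chosen by symbol, as every gene whose name begins with Psm, a letter from a to g and a digit. This gave 49 of the 23412 genes of the count table. The core particle class held 19 genes (Psma and Psmb), the regulatory particle class 21 (Psmc and Psmd), and the remaining 9 were activators, an inhibitor and assembly chaperones (Psme, Psmf and Psmg).

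All mice, control and knock-out, were Rpl22 flox/flox and CamKCre+, the RiboTag arrangement in which a Cre enzyme under a promoter of excitatory forebrain neurons switches Rpl22 to a tagged form. The knock-out (KO) mice also carried Fmr1X-Y, the notation for a male without the X-linked gene, and the ages of the animals are not given in the sources used here. RNA-seq was made from total cortical RNA of control mice 1, 3, 6 and 8 (n = 4) and of KO mice 2, 4, 5 and 7 (n = 4). Ribosome profiling, which sequences the mRNA fragments shielded by ribosomes (footprints), was done on control mice 1, 3 and 9 (n = 3) and on KO mice 2, 4 and 10 (n = 3). No pull-down of tagged ribosomes is named in the labels' protocols, so the values are those of the whole cortical lysate and not of the Cre-expressing neurons.

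The proteasome degrades proteins that carry a ubiquitin chain, and in neurons it takes part in the turnover of synaptic proteins. Its core particle is a barrel made of outer rings of alpha subunits (Psma) and inner rings of beta subunits (Psmb), and 3 kinds of beta subunit, Psmb5, Psmb6 and Psmb7, hold the proteolytic sites. The regulatory particle caps the barrel. Its base contains a ring of ATPases (Psmc) that unfold the substrate, and its lid contains the deubiquitinase Psmd14. The subunits are built into one complex in fixed proportions, and the transcription factor Nfe2l1 is known to raise their genes together when proteasome activity is low.

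Summed over genes, core particle RNA was lower in KO mice and core particle footprints were higher, while the regulatory sums moved less in both. Opposite changes of single genes can cancel in such sums, and the difference between the classes was not tested. The summed RNA of the core genes was 1803 ± 61.8 CPM (reads of a gene after rescaling every library to the same total; mean ± SD, n = 4) in controls and 1642 ± 37.7 CPM (n = 4) in KO mice. Their summed footprints were 1688 ± 13.8 CPM (n = 3) in controls and 1871 ± 20.3 CPM (n = 3) in KO mice. For the regulatory genes, the summed RNA was 2901 ± 85.0 CPM in controls and 2840 ± 108 CPM in the KO mice, and the summed footprints were 3190 ± 39.3 CPM and 3286 ± 9.64 CPM.

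Individual genes were tested between genotypes with edgeR over all genes, and a gene is called here when its adjusted p-value was under 0.05. Fold changes are KO over control on the log2 scale. Of the 49 genes, 46 had enough reads for the RNA test and 45 for the footprint test and for the test of translational efficiency (TE), the footprint level relative to the RNA level. The 3 genes left out of every test were Psma8, the testis form of an alpha subunit, Psmb11, the thymus form of a beta subunit, and Psmb9, an immune beta subunit. Psmc3ip, which shares only the prefix and encodes a meiotic protein, had too few footprints.

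In RNA, 4 of the 46 tested members were called higher in KO mice and 5 lower, or 19.6%, where 7.51% of all 13507 tested genes were called, 3.58% higher and 3.94% lower. All 4 higher genes belonged to the regulatory particle (Psmc2, Psmd3, Psmd7, Psmd11), and 4 of the 5 lower genes to the core (Psma2, Psmb3, Psmb6, Psmb7). The fifth was Psmc3. In footprints, 15 of 45 members were called higher and 3 lower, or 40%, against a background of 25.7% of 12158 genes, 12% higher and 13.7% lower. Of the 15, 7 were core genes, 6 regulatory and 2 of the remaining class. In TE, 9 members were called higher and 2 lower, or 24.4%, against 7.44% of 12145 genes, 3.22% higher and 4.22% lower. The higher ones were 6 core genes, 2 regulatory genes and Psme3, and the lower ones were the regulatory genes Psmc2 and Psmd7.

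**Figure D1:**
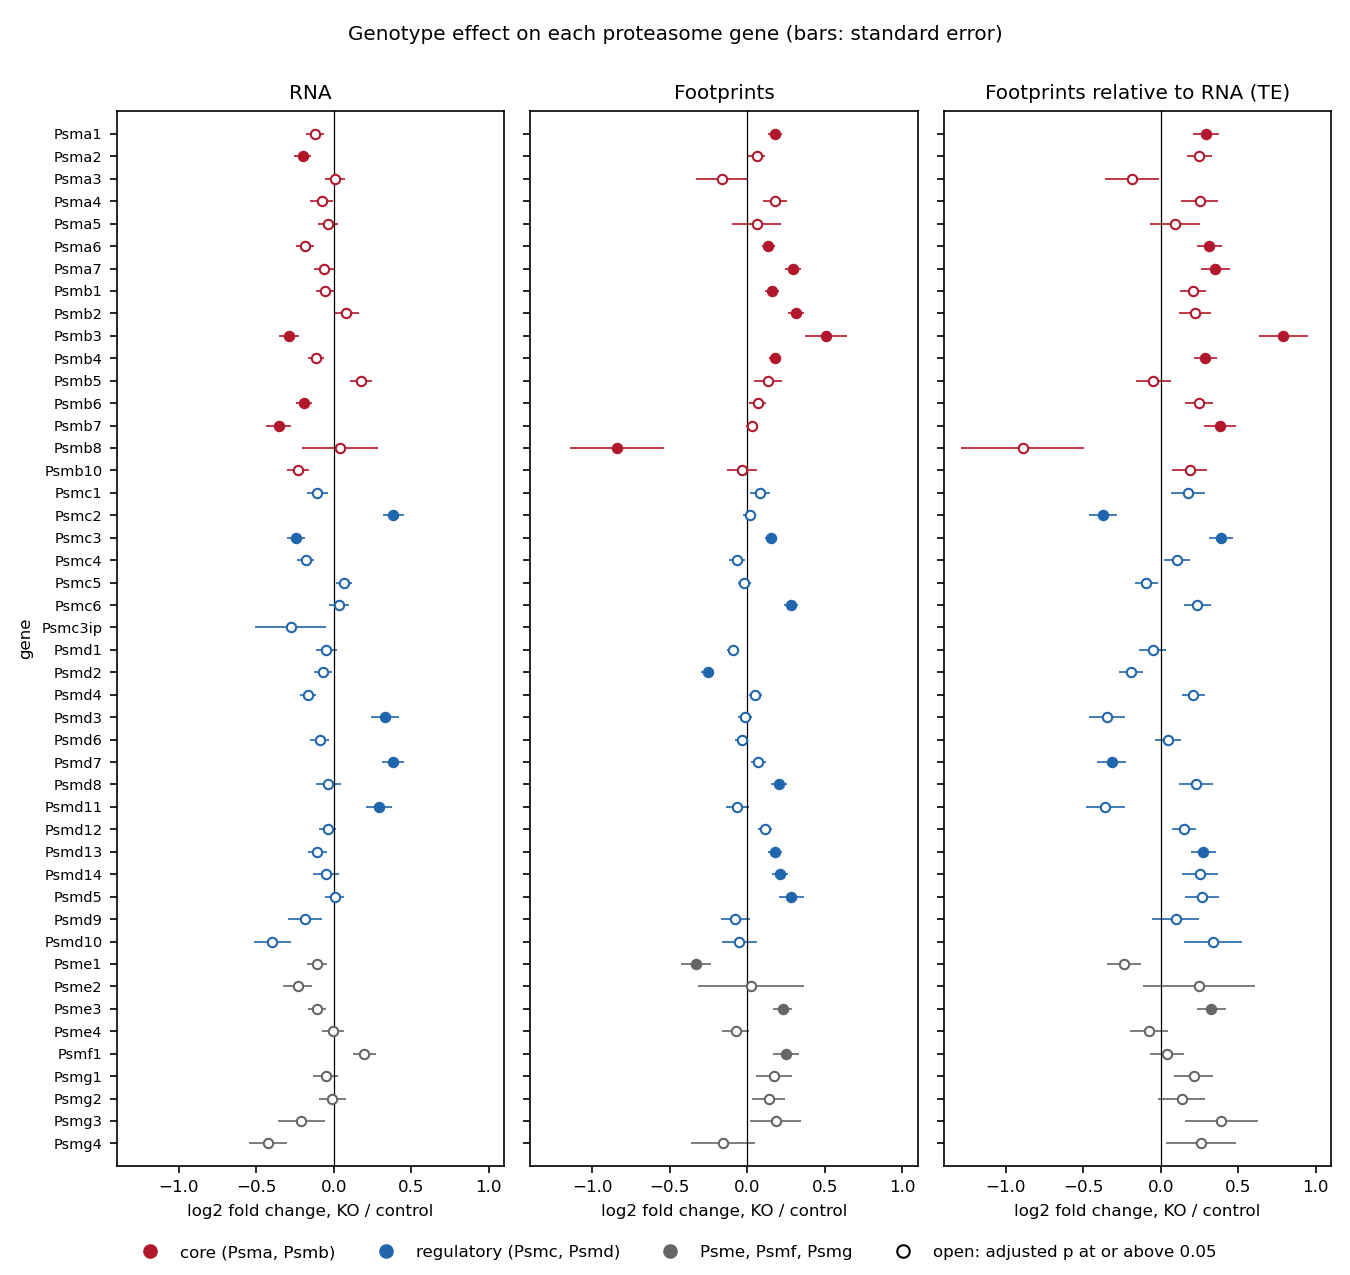
The log2 fold change (KO over control, x axis) of each tested proteasome gene (y axis) in RNA, footprints and TE, with its standard error as a bar. Filled points are called genes: the 4 called rises in RNA are all regulatory particle genes, and 13 of the 15 called rises in footprints are core or regulatory genes.

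The RNA calls rest on a small number of distinct libraries. The RNA libraries of KO mice 2, 4 and 7 differed from each other by little more than counting noise (chi-square per degree of freedom 1.18 to 1.32), while other pairs of the same genotype lay between 1.99 and 11.8. With these 3 libraries summed into 1 and control mice 1 and 3 into another, no member was called by edgeR, 9 had an unadjusted p under 0.05, and 36 of all genes were called. With mice 5 to 8 alone, Psmc2 was the only member called, among 57 genes. With mice 1 to 4 alone, 22 members were called among 3284 genes. Leaving out 1 mouse at a time gave between 2 and 14 called members, and Psmc2 and Psmd7 were called in each of those 8 fits. The labels give each library its own mouse number, and all were kept. The p-values measure the spread between these libraries, part of which may be technical. DESeq2, run on the same 8 libraries, called all 9 members and also Psmc4, Psmd4 and Psmd10, all lower.

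Footprint libraries of the same genotype, from different mice, gave 1.15 to 1.42 on the same chi-square measure. The measure rises with depth, and footprint libraries held fewer counts (4124065 to 6033030) than RNA libraries (8847547 to 11371851). Its values thus do not show whether footprint libraries were as alike as those 3 near-identical RNA libraries. At their own depth, footprint libraries differed by little more than counting noise. The footprint calls, and the footprint side of TE, therefore rest on a small spread between libraries. Of the other fits on all 6 libraries, the one with plain library sizes called 22 members and the one blocked by title prefix 19, and DESeq2 and a fit that pools both assays called fewer. DESeq2 on the 6 footprint libraries called 13 of the 18 members, among 1801 genes, and lost Psma6, Psmb8, Psmd5, Psme1 and Psmf1 (adjusted p 0.0546 to 0.177). An edgeR fit over all 14 libraries, in which footprints share the spread of RNA, called 8 of the 18, among 1532 genes. The 10 lost there were Psma1, Psma6, Psmb1, Psmb8, Psmc3, Psmd8, Psmd13, Psmd14, Psme3 and Psmf1 (adjusted p 0.0510 to 0.184). Psma7, Psmb2, Psmb4, Psmc6 and Psmd2 were called in all 12 alternative fits.

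The median log2 fold change of the 16 tested core genes was -0.10 in RNA, 0.14 in footprints and 0.25 in TE. The core RNA median was -0.04 with mice 5 to 8 alone and -0.16 with mice 1 to 4 alone. For the regulatory genes the median was -0.05 in RNA (21 genes), 0.03 in footprints (20 genes) and 0.13 in TE (20 genes). By means over genes, the values in RNA, footprints and TE were -0.10, 0.079 and 0.17 for core genes. For regulatory genes they were -0.024, 0.049 and 0.052, so that the classes lay closer in footprints than by medians. Single libraries moved these regulatory medians. In footprints the median was -0.0024 without KO mouse 2, 0.0093 without control mouse 1, 0.020 without control mouse 9 and 0.06 without KO mouse 4, and it was 0.015 with no filter and 0.09 with plain library sizes. In RNA it was -0.10 without KO mouse 5, -0.08 without control mouse 6, -0.017 with the near-identical libraries summed and 0.012 with mice 5 to 8 alone. In TE it was 0.19 with plain library sizes, which also moved the core median to 0.32. For the 9 other members it was -0.11, 0.14 and 0.21. The medians of all tested genes were -0.001, 0.006 and -0.011. Core genes had a negative RNA value in 12 of 16 cases and a positive footprint value in 13 of 16. Both signs together, lower in RNA and higher in footprints, were seen in 11 of 16 core genes, 7 of 20 regulatory genes and 5 of the 9 others, and in 21.8% of all genes. The regulatory genes were the more spread in RNA (SD over genes 0.21, core 0.14), and the core genes in footprints (core 0.29, regulatory 0.14), where Psmb3 and Psmb8 lay at the ends.

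**Figure D2:**
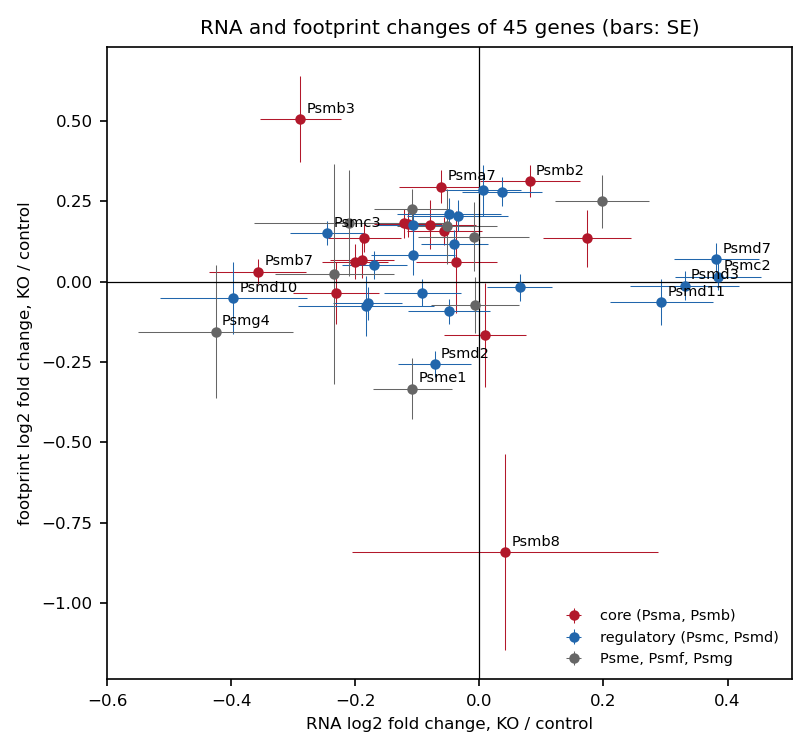
The log2 fold change in RNA (x axis) against that in footprints (y axis) for the 45 genes tested in both, with standard errors as bars and colours for core, regulatory and other genes. Most core genes lie at the upper left (lower RNA, higher footprints), Psmc2, Psmd3, Psmd7 and Psmd11 lie at the right near a footprint change of 0, and Psmb8 lies far below the rest.

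Changes in RNA and in footprints did not run in parallel over the 45 genes (Pearson r = -0.02, Spearman rho = 0.05). Over all 12145 genes r was 0.36 and rho was 0.22. These values describe genes of the same libraries, which are not independent replicates.

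The share of core genes among core and regulatory counts was taken within each library, which needs no scaling between libraries. Core genes held 38.4%, 38.5%, 38.4% and 38.0% of the core and regulatory RNA counts in control mice 1, 3, 6 and 8. They held 36.5%, 36.9%, 36.1% and 37.0% in KO mice 2, 4, 5 and 7. Every KO library was below every control library. In footprints the share was 34.2%, 34.9% and 34.7% in control mice 1, 3 and 9, and 35.9%, 36.4% and 36.5% in KO mice 2, 4 and 10, so that every KO library was above every control library. The means were 38.3% ± 0.256 (SD, n = 4) and 36.6% ± 0.441 (n = 4) in RNA, a KO minus control difference of -1.69 percentage points. In footprints they were 34.6% ± 0.338 (n = 3) and 36.3% ± 0.319 (n = 3), a difference of 1.68 points. The 95% Wilson intervals of single libraries reached at most 0.47 points to either side in RNA and 0.65 points in footprints. In RNA the difference was -1.73 points within mice 1 to 4 and -1.66 points within mice 5 to 8. It was -1.84 points with the near-identical libraries summed. Psmb7, an abundant core gene with a large RNA change, accounted for part of it: without Psmb7 the difference was -1.16 points in RNA and 1.87 points in footprints, and without both Psmb7 and Psmc3, a regulatory gene, it was -1.55 and 2.09 points. No p-value is given, because the share is a summary over genes chosen as a group. The share weights genes by their counts. With every gene weighted equally, as the mean log2 CPM of the core genes minus that of the regulatory genes, the groups did not overlap in RNA (-0.45 to -0.39 in controls, -0.57 to -0.46 in KO mice) but overlapped in footprints (-1.157 to -1.058 and -1.108 to -1.004).

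**Figure D3:**
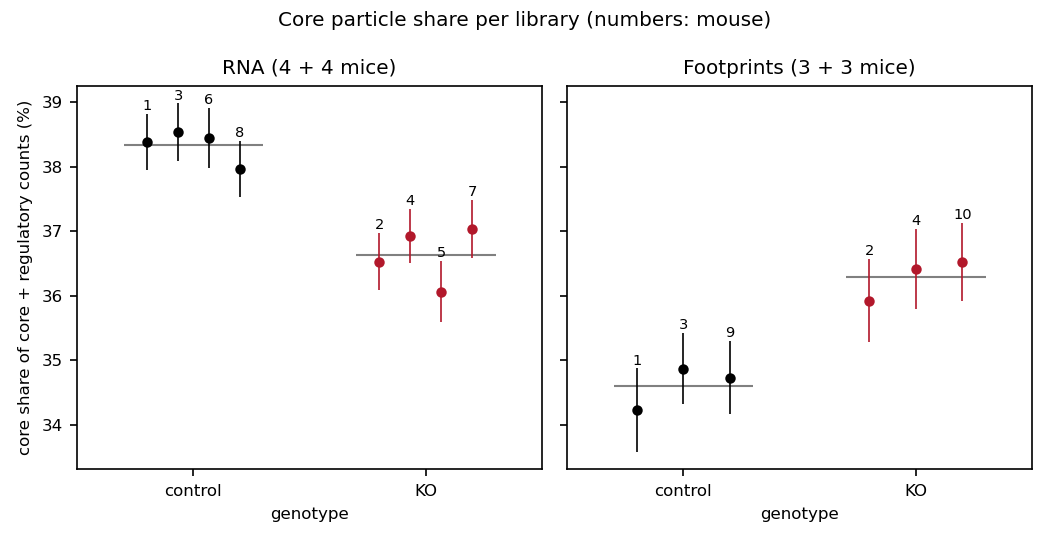
Share of core particle counts among core plus regulatory counts (y axis, percent; the axis does not start at 0) in each library of control and KO mice, for RNA and footprints. Points are libraries with 95% Wilson intervals and mouse numbers, grey lines are group means: KO libraries lie below controls in RNA (36.6% against 38.3%) and above them in footprints (36.3% against 34.6%).

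Markers of cell types also differed between the groups. The summed level of 6 excitatory neuron markers was 2495 to 2768 CPM in controls and 3137 to 3411 CPM in the KO mice, with 2 of the 6 called higher. That of 6 oligodendrocyte markers was 4888 to 5331 CPM in controls and 4271 to 4598 CPM in the KO mice, with 1 called lower. In footprints the excitatory markers ranged from 5576 to 5721 CPM in controls and from 5366 to 5629 CPM in the KO mice, with 3 called higher and 1 lower, and the oligodendrocyte markers from 8213 to 8372 CPM and from 8025 to 8067 CPM, with 1 called higher and 3 lower. Of all genes, 7.51% were called in RNA and 25.7% in footprints. Astrocyte markers summed to 3207 to 3236 CPM in control footprints and 3012 to 3059 CPM in KO footprints, with 6 of 6 lower and 2 called, and in RNA their sums overlapped (1637 to 2024 and 1645 to 1885 CPM), with Aqp4 and Gfap called lower. Inhibitory neuron markers summed to 1625 to 1671 CPM in control footprints and 1698 to 1724 CPM in KO footprints, with 3 called higher and 1 lower, and overlapped in RNA. Endothelial markers summed to 212 to 219 CPM and 204 to 208 CPM in footprints, and choroid plexus markers to 5.20 to 8.52 CPM and 3.09 to 5.16 CPM, while microglial and blood markers overlapped in both assays. The part of all these in the proteasome values was not tested, and in bulk cortex fewer cells of a type and less RNA per cell cannot be told apart. Fmr1 matched the labels. Its RNA lay between 71.4 and 90.01 CPM in the 4 control libraries and between 18.1 and 23.4 CPM in the 4 KO libraries.

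Among the 7 alpha ring genes (Psma1 to Psma7), which form the gated entrance of the barrel, 1 was called in RNA (14.3%, against 7.51% of all genes) and 3 in footprints (42.9%, against 25.7%). Psma2 RNA was 153.6, 153.2, 149.9 and 161.6 CPM in control mice 1, 3, 6 and 8, and 128.5, 132.4, 141.9 and 135.6 CPM in the KO mice 2, 4, 5 and 7. The groups did not overlap, and the log2 fold change was -0.20 ± 0.05 (SE, adjusted p = 0.0358). The call was lost without mouse 1, 2, 3, 4, 6 or 7 (adjusted p 0.0625 to 0.134). Psma2 footprints were 128.7, 115.6 and 113.0 CPM in controls and 121.3, 126.4 and 122.8 CPM in the KO mice, which overlapped.

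Psma7 had the firmest footprint change of the alpha ring. Its footprints were 115.9, 119.5 and 126.5 CPM in control mice 1, 3 and 9, and 146.7, 149.3 and 149.5 CPM in the KO mice 2, 4 and 10. All KO libraries lay above all controls, with a log2 fold change of 0.30 ± 0.05 (adjusted p = 2.19e-06). Psma7 RNA was 125.9, 125.1, 126.5 and 141.6 CPM in controls and 116.5, 119.1, 140.2 and 122.3 CPM in the KO mice, with a log2 fold change of -0.06 ± 0.07 (adjusted p = 0.636). In TE it was higher by 0.35 ± 0.09 (adjusted p = 0.0223), a call lost without mouse 1, 2, 3, 4 or 10 (0.0527 to 0.110).

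Psma1 and Psma6 rose in footprints by 0.18 ± 0.04 (adjusted p = 0.000978) and 0.14 ± 0.04 (0.0124), the second lost without mouse 9 or 10 (0.110 to 0.119). Both were also called in TE, Psma1 at 0.29 (adjusted p = 0.0314) and Psma6 at 0.31 (0.0208). Each of these TE calls was lost in 5 of 10 fits that left out 1 mouse, for Psma1 without mouse 2, 3, 4, 9 or 10 (0.0823 to 0.122) and for Psma6 without mouse 1, 2, 4, 9 or 10 (0.0602 to 0.0867). Psma3, Psma4 and Psma5 were called in none of the 3 tests, with RNA log2 fold changes from -0.08 to 0.01 and footprint log2 fold changes from -0.17 to 0.18. Psma4 was called in footprints with plain library sizes (0.24, adjusted p = 0.0130) and in TE with the mouse as a block (0.31, 0.0416).

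All 4 beta ring genes that carry no active site, Psmb1, Psmb2, Psmb3 and Psmb4, were called higher in footprints, where 12% of all genes were, and in each the KO libraries lay above the controls. Group values failed to overlap in 19 members above control and 4 below it in footprints, where 37.3% of all genes showed no overlap. In RNA that held for 3 members above and 12 below, against 15.1% of all genes.

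Psmb3 had the largest called TE change of the 45 members tested. Its RNA was 87.3, 80.0, 75.5 and 76.7 CPM in control mice 1, 3, 6 and 8, and 62.9, 66.3, 62.9 and 69.3 CPM in the KO mice 2, 4, 5 and 7. Its footprints were 14.2, 16.1 and 18.6 CPM in control mice 1, 3 and 9, and 27.3, 24.5 and 19.1 CPM in the KO mice 2, 4 and 10. KO libraries were thus all lower in RNA and all higher in footprints, although KO mouse 10 exceeded control mouse 9 only narrowly. The log2 fold change was -0.29 ± 0.06 in RNA (adjusted p = 0.0167), 0.51 ± 0.13 in footprints (0.0023) and 0.79 ± 0.16 in TE (0.00324). The RNA call was lost without mouse 1, 2 or 4 (0.0557 to 0.0683) and the footprint call without mouse 2 (0.0527). The TE call held in all 19 alternative fits, with an adjusted p of at most 0.0449.

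Psmb2 footprints were 130.1, 129.0 and 123.8 CPM in controls and 154.5, 160.0 and 160.4 CPM in the KO mice, a log2 fold change of 0.31 ± 0.05 (adjusted p = 2.52e-07). Its RNA was 64.2, 57.4, 63.8 and 74.98 CPM in controls and 73.1, 67.5, 62.8 and 71.9 CPM in the KO mice, which overlapped (0.08 ± 0.08, adjusted p = 0.59). Psmb4, the gene of a structural beta subunit, rose in footprints by 0.18 ± 0.04 (adjusted p = 0.000172) and in TE by 0.29 (0.0184). This TE call was lost without mouse 1, 2, 4 or 10 (0.0578 to 0.110). Psmb1 rose in footprints by 0.16 ± 0.04 (0.00412), which missed the threshold without mouse 3 (0.0542).

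The 3 catalytic subunits differed among themselves in RNA. In footprints 0 of 3 were called by edgeR, which called 25.7% of all genes, with 0 at an unadjusted p under 0.05 and 0 called by DESeq2, which called 1801 of 12158 genes. With 3 genes, a count of 0 does not set them apart from that background. Psmb7, which holds the trypsin-like site, had RNA values of 253.4, 258.7, 218.1 and 206.7 CPM in control mice 1, 3, 6 and 8, and of 175.4, 175.1, 204.8 and 176.7 CPM in the KO mice 2, 4, 5 and 7. The groups did not overlap, but KO mouse 5 came close to control mouse 8. The log2 fold change was -0.36 ± 0.08 (adjusted p = 0.0147), lost without mouse 2, 4 or 7 (0.0600 to 0.0613). With mice 5 to 8 alone it was -0.16 (adjusted p = 0.548).

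Psmb7 footprints were 229.0, 235.1 and 228.4 CPM in controls and 243.5, 234.6 and 230.9 CPM in the KO mice, a log2 fold change of 0.03 ± 0.04 (adjusted p = 0.621). Relative to its RNA, Psmb7 was higher in KO mice by 0.38 ± 0.10 (adjusted p = 0.0242), a call lost without mouse 1, 2, 3, 4 or 9 (0.0612 to 0.130).

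Psmb6, with the caspase-like site, had RNA values of 137.6, 129.4, 134.1 and 136.2 CPM in controls and of 115.9, 114.6, 121.5 and 119.3 CPM in the KO mice. Every KO library was below every control library (log2 fold change -0.19 ± 0.05, adjusted p = 0.0384), and the call was lost without mouse 1, 2, 4, 6 or 7 (0.0917 to 0.136). Its footprints were 124.2, 130.0 and 125.4 CPM in controls and 115.3, 146.3 and 135.8 CPM in the KO mice. They overlapped, with KO mouse 2 lowest and KO mouse 4 highest.

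Psmb5, with the chymotrypsin-like site, had RNA values of 45.5, 41.8, 43.4 and 39.2 CPM in controls and of 51.6, 47.6, 47.4 and 44.9 CPM in the KO mice. Only KO mouse 7 lay below control mouse 1, and the log2 fold change of 0.17 ± 0.07 was not called (adjusted p = 0.148). Its footprints were 41.9, 41.5 and 37.5 CPM in controls and 44.7, 44.2 and 43.5 CPM in the KO mice (0.14 ± 0.09, adjusted p = 0.29). The RefSeq gene table names pseudogenes of Psmb5, Psmb6 and Psmb7, and how reads shared with such copies were counted is not given in the sources used here, so the values of these 3 genes are uncertain to that extent.

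The sequences around the starts of Psmb5 and Psmb6 both hold the letters TGACNNNGC. These letters are the core of the element known to be bound by Nfe2l1 and related factors. Psmb6 RNA was called lower, and the rise of Psmb5 RNA was not called. A part of the element in either was not tested. RefSeq promoter windows of 300 bases were found for 41 of the 49 members. They ran from 250 before to 50 after the transcript start on which the window was placed (GRCm38.p6). Of these 44 windows, 6 held TGACNNNGC on either strand (13.6%), as did 12.4% of all 32851 windows. No window was found for Psma8, Psmb1, Psmb2, Psmb7, Psmc3, Psmd3, Psmd7 and Psmg2. Among these, Psmb7, Psmc3, Psmd3 and Psmd7 were called in RNA, and Psmb1, Psmb2 and Psmc3 in footprints. In 4 members a match begins within 50 bases before the transcript start of the window. These matches are shown with 10 bases to either side, on the strand of the gene, with the match in capitals.
Psmb5 (chr14:54618024-54618052, minus strand): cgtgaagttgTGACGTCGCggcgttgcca
Psmb6 (chr11:70525338-70525366, plus strand): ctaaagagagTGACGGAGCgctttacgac
Psmd9 (chr5:123228149-123228177, plus strand): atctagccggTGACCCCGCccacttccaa
Psme4 (chr11:30771758-30771786, plus strand): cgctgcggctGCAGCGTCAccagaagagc

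These matches begin 47, 9, 31 and 7 bases before the start used for the windows of Psmb5, Psmb6, Psmd9 and Psme4. For Psmb6 this start lies inside the gene as RefSeq annotates it, so that the match lies within the gene and not upstream of it. The match of Psme4 reads on the opposite strand and runs across the start used for its window. Further upstream, Psmc6 and Psmd12 held a match 227 and 247 bases before that start. Of these 6 genes, Psmb6 was called in RNA (lower) and Psmc6 in footprints (higher), and the other 4 in neither. The letters CCAAT, the core of the element bound by the factor NF-Y, stood on either strand in 15 of the 44 windows (34.1%) and in 37.4% of all windows. Both shares are near those of all windows but cover only the members with a window. A match of letters does not show that a factor binds there.

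The immune subunits Psmb8, Psmb9 and Psmb10 replace the catalytic ones in immune cells and after interferon, and 2 of them were scarce in cortex. Psmb8 had 17 to 36 reads per RNA library and 10 to 32 per footprint library. Its footprints were 3.55, 5.44 and 5.15 CPM in control mice 1, 3 and 9, and 2.38, 3.37 and 2.31 CPM in the KO mice 2, 4 and 10. All KO libraries were below all controls, and the log2 fold change of -0.84 ± 0.31 was called (adjusted p = 0.031), but not without mouse 2, 3, 9 or 10 (0.0815 to 0.139).

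Psmb8 RNA was 1.71, 3.73, 1.99 and 2.73 CPM in controls and 2.25, 2.62, 2.33 and 3.26 CPM in the KO mice, which overlapped (0.04 ± 0.25, adjusted p = 0.943). Its TE log2 fold change of -0.89 ± 0.40 was larger in size than that of Psmb3, but was not called (adjusted p = 0.187). Psmb10 RNA was 51.0, 44.1, 46.4 and 51.1 CPM in controls and 42.7, 40.6, 39.5 and 41.2 CPM in the KO mice. These groups did not overlap, but the change missed the threshold (-0.23 ± 0.07, adjusted p = 0.0573). Psmb10 footprints were 36.9, 36.2 and 36.4 CPM in controls and 33.8, 34.3 and 38.4 CPM in the KO mice, which overlapped.

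Psmb9 had 6 to 12 reads in each RNA or footprint library, too few for a test. Its RNA was 0.806, 0.830, 1.33 and 1.07 CPM in controls and 0.586, 0.523, 0.698 and 0.791 CPM in the KO mice, and its footprints were 1.89, 1.36 and 1.95 CPM and 1.43, 1.80 and 2.10 CPM. Interferon-responsive genes, given here because the immune subunits belong to that programme, summed to 254 to 264 CPM in control footprints and 273 to 281 CPM in KO footprints, with 1 of 10 tested genes called (10%, against 25.7% of all genes). That gene was B2m, the light chain of class I molecules, at 132.8 CPM in controls and 149.9 CPM in the KO mice on average. Ifit3 and Tap1 had negative log2 fold changes (-0.50 and -0.79) that were not called. In RNA they summed to 146 to 160 CPM in controls and 145 to 153 CPM in the KO mice, with none of 11 called by edgeR and 1 at an unadjusted p under 0.05. Their part in the Psmb8 result was not tested.

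Among the 6 ATPases of the base, Psmc2 rose and Psmc3 fell in RNA. Psmc2 RNA was 105.2, 108.5, 91.1 and 103.6 CPM in control mice 1, 3, 6 and 8, and 130.1, 125.2, 148.3 and 130.3 CPM in the KO mice 2, 4, 5 and 7. All KO libraries lay above all controls, with KO mouse 5 highest, and the log2 fold change was 0.38 ± 0.07 (adjusted p = 0.00531). It was 0.51 with mice 5 to 8 alone (adjusted p = 0.0316) and 0.45 with the near-identical libraries summed (adjusted p = 0.09996).

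Psmc2 footprints were 212.6, 220.6 and 226.4 CPM in controls and 230.9, 216.6 and 221.5 CPM in the KO mice, which overlapped, with a log2 fold change of 0.02 ± 0.04 (adjusted p = 0.828). Relative to RNA the footprints were lower in KO mice by -0.37 ± 0.09 (adjusted p = 0.0132), a call that held in all 19 alternative fits.

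Psmc3 changed in opposite directions in RNA and in footprints. Its RNA was 312.7, 287.4, 276.2 and 274.5 CPM in controls and 239.3, 229.6, 262.0 and 240.1 CPM in the KO mice. Its footprints were 281.2, 280.8 and 272.6 CPM in controls and 303.4, 319.2 and 304.0 CPM in the KO mice. Neither assay showed overlap: KO libraries were all lower in RNA and all higher in footprints. The log2 fold change was -0.25 ± 0.06 in RNA (adjusted p = 0.0234), lost without mouse 1, 2, 4 or 7 (0.0756 to 0.0969). It was 0.15 ± 0.04 in footprints (adjusted p = 0.000706) and 0.39 ± 0.08 in TE (0.00324), the latter held in all 19 alternative fits.

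Psmc6 was called in footprints (0.28 ± 0.05, adjusted p = 3.09e-07), with an RNA log2 fold change of 0.04 ± 0.06 (adjusted p = 0.788). In TE it was not called (0.24, adjusted p = 0.101), except in 5 alternative fits, among them the one with the mouse as a block (0.35, 0.000214). Psmc1, Psmc4 and Psmc5 were called in none of the 3 edgeR tests on all libraries, with log2 fold changes from -0.18 to 0.06 in RNA and from -0.07 to 0.08 in footprints.

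The base also holds Psmd1, Psmd2 and Psmd4. Psmd1 and Psmd2 are its large scaffold subunits and Psmd4 is a ubiquitin receptor. Psmd2 had the only called footprint fall of the regulatory particle. Its footprints were 254.5, 254.6 and 251.5 CPM in control mice 1, 3 and 9, and 204.2, 222.9 and 209.7 CPM in the KO mice 2, 4 and 10, all below controls (-0.26 ± 0.04, adjusted p = 2.32e-07), and the call held in all 12 alternative fits. Psmd2 RNA was 468.8, 455.8, 426.1 and 401.4 CPM in controls and 405.8, 413.7, 441.3 and 406.5 CPM in the KO mice, which overlapped (-0.07 ± 0.06, adjusted p = 0.504). Psmd1 footprints had a log2 fold change of -0.09 ± 0.04 (adjusted p = 0.0741) and Psmd4 footprints one of 0.05 ± 0.04 (0.415).

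In the lid, 3 of 8 genes were called higher in RNA, where 3.58% of all genes were, and 3 others higher in footprints, where 12% of all genes were. Psmd7, the partner of the deubiquitinase subunit Psmd14, had RNA values of 50.2, 55.2, 54.1 and 61.5 CPM in controls and of 70.4, 72.7, 75.1 and 70.0 CPM in the KO mice. All KO libraries lay above all controls (0.38 ± 0.07, adjusted p = 0.00501). With mice 5 to 8 alone the log2 fold change was 0.32 (adjusted p = 0.206). Psmd7 footprints were 148.3, 159.1 and 137.3 CPM in controls and 156.0, 155.8 and 156.0 CPM in the KO mice, which overlapped. Its TE was lower in KO mice (-0.32 ± 0.09, adjusted p = 0.0418), a call that held in 2 of 10 fits leaving out 1 mouse, those without mouse 8 or 9, and otherwise lay at 0.0512 to 0.160. Of all 19 alternative fits, 6 kept it, and it was lost with the title prefix as a block (0.0573).

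Psmd3, a structural lid subunit, had RNA values of 90.5, 99.6, 98.4 and 124.8 CPM in controls and of 135.5, 134.5, 116.2 and 133.5 CPM in the KO mice. Control mouse 8 and KO mouse 5 lay toward the other group and overlapped. The log2 fold change was 0.33 ± 0.09 (adjusted p = 0.0345), lost without mouse 1, 2, 3, 4, 6 or 7 (0.0784 to 0.107). Psmd3 footprints were 171.0, 177.5 and 186.1 CPM in controls and 179.3, 179.6 and 173.2 CPM in the KO mice, which overlapped.

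Psmd11, a further lid subunit, had RNA values of 50.2, 46.5, 50.5 and 45.6 CPM in controls and of 56.6, 57.2, 69.8 and 53.2 CPM in the KO mice. KO libraries were all higher, mouse 5 most (0.29 ± 0.08, adjusted p = 0.045). Among the fits leaving out 1 mouse, the call held only without mouse 8 (0.0539 to 0.0953 in the other 7 fits). Of all 17 alternative fits, 7 kept it, and it was lost with the title prefix as a block (0.0582). Psmd11 footprints were 63.4, 73.1 and 81.2 CPM in controls and 68.7, 68.0 and 73.5 CPM in the KO mice, which overlapped.

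Psmd8, Psmd13 and Psmd14 were the lid genes called in footprints, at 0.21 ± 0.05 (adjusted p = 0.00054), 0.18 ± 0.05 (0.00162) and 0.21 ± 0.05 (0.000721). All 3 calls were lost in the fit over all 14 libraries (adjusted p 0.148, 0.0786 and 0.146). Their RNA log2 fold changes lay between -0.11 and -0.04 and were not called. Psmd13 was also called in TE (0.27, adjusted p = 0.0422), lost without mouse 1, 2, 3, 4, 7, 9 or 10 (0.0560 to 0.147). Psmd6 and Psmd12 were called in none of the 3 tests. Psmd6 was called in RNA with mice 1 to 4 alone, and Psmd12 in 3 alternative footprint fits and in TE with the mouse as a block (0.25, adjusted p = 0.0236).

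**Figure D4:**
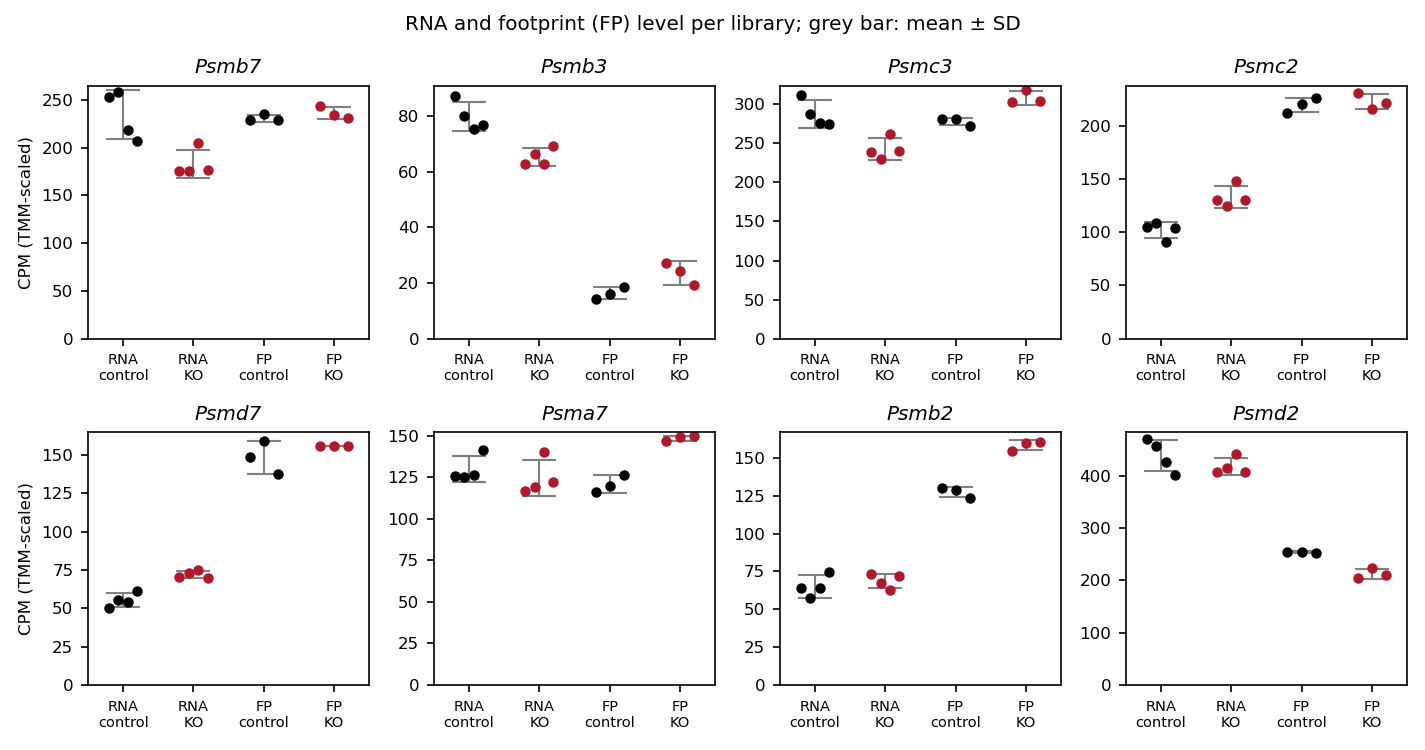
RNA and footprint (FP) levels of 8 proteasome genes in each library (y axis, TMM-scaled CPM from 0), with controls in black, KO mice in red and the mean ± SD in grey. Psmb7, Psmb3 and Psmc3 are lower in KO RNA, Psmc2 and Psmd7 are higher in KO RNA, Psma7 and Psmb2 are higher in KO footprints and Psmd2 is lower in KO footprints.

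The mouse was also used as a block for TE, since mice 1 to 4 were measured in both assays. In this paired fit 17 members were called higher and 3 lower, among 1831 genes, and all 11 calls of the unblocked fit were kept. The 9 members called only with the block were Psma2, Psma4, Psmb1, Psmb6, Psmc6, Psmd4, Psmd12 and Psmd14, all higher, and Psmd3, lower (adjusted p 3.04e-07 to 0.0478). The within-mouse contrast rests on mice 1 to 4, 2 of each genotype, and KO mice 2 and 4 are among those with near-identical RNA libraries. With those libraries summed, TE without the block called 3 members, all among the 11. The core median exceeded the regulatory median in TE by 0.12 without the block and by 0.20 with it.

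Of the base assembly chaperones, Psmd5 rose in footprints. Its footprints were 54.4, 48.6 and 52.4 CPM in controls and 56.3, 61.1 and 70.1 CPM in the KO mice, all above controls, with mouse 10 highest (0.28 ± 0.08, adjusted p = 0.00408). The call was lost without mouse 10 (0.134). Psmd5 RNA was 75.4, 74.3, 72.2 and 69.2 CPM in controls and 78.3, 74.4, 70.7 and 68.7 CPM in the KO mice, which overlapped. Psmd9 had log2 fold changes of -0.18 ± 0.11 in RNA (adjusted p = 0.338) and -0.08 ± 0.09 in footprints (0.604). Psmd10, also known as gankyrin, had -0.40 ± 0.12 in RNA (adjusted p = 0.0556) and -0.05 ± 0.11 in footprints (0.787).

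The chaperones that assemble the core rings, Psmg1 to Psmg4, were called by neither edgeR nor DESeq2 on all libraries. Psmg4 RNA was called with the exon columns (-0.41, adjusted p = 0.0462) and without control mouse 8 (-0.50, 0.0162). In the edgeR tests on all libraries, at an unadjusted p under 0.05 there was 1 in RNA (Psmg4) and 0 in footprints and TE. Their RNA log2 fold changes were all negative, from -0.01 for Psmg2 to -0.43 ± 0.12 for Psmg4 (adjusted p = 0.0522). Their TE log2 fold changes were all positive, from 0.14 for Psmg2 to 0.39 ± 0.24 for Psmg3 (adjusted p = 0.352).

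The activators bind the ends of the barrel in place of the regulatory particle. Psme1 and Psme2 form the interferon-inducible activator and Psme3 a nuclear one, and they split in footprints. Psme1 footprints were 42.8, 42.0 and 40.7 CPM in controls and 30.4, 37.0 and 31.9 CPM in the KO mice, all below controls (-0.33 ± 0.10, adjusted p = 0.00548). DESeq2 did not call it (adjusted p = 0.0546). Psme1 RNA was 39.3, 39.1, 37.3 and 37.7 CPM in controls and 36.4, 35.0, 35.1 and 35.9 CPM in the KO mice, also without overlap, but not called (-0.11 ± 0.06, adjusted p = 0.331). Psme3 rose in footprints by 0.23 ± 0.06 (adjusted p = 0.00282), lost without mouse 10 (0.0957), and in TE by 0.33 ± 0.09 (0.0357), lost without mouse 1, 2, 3, 4, 6, 9 or 10 (0.0511 to 0.129).

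Psme2 footprints ranged from 2.38 to 3.20 CPM in controls and from 2.02 to 4.20 CPM in the KO mice, and their log2 fold change of 0.02 had a standard error of 0.34. Psme4, the large single-chain activator, had log2 fold changes of -0.01 ± 0.07 in RNA and -0.07 ± 0.09 in footprints. The inhibitor Psmf1 rose in footprints by 0.25 ± 0.08 (adjusted p = 0.0151), lost without mouse 2, 3 or 4 (0.0547 to 0.0930), with an RNA log2 fold change of 0.20 ± 0.08 (adjusted p = 0.127).

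Members also differed in how many footprints they had for their RNA. In control mice 1 and 3, measured in both assays, the ratio of footprint CPM to RNA CPM of the same gene had a median of 0.922 over 16 core genes, 1.28 over 20 regulatory genes and 0.911 over all 12145 genes. At the high end, Psmd7 had ratios of 2.95 and 2.88 in the 2 mice, Psmd9 2.40 and 2.41, Psmb2 2.03 and 2.25, and Psmc2 2.02 and 2.03.

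At the low end stood Psmb3 (0.163 and 0.202), Psma3 (0.183 and 0.169), Psma5 (0.159 and 0.189) and Psme2 (0.119 and 0.120), all at or under the 2.2 percentile of all genes. Psme4 followed at 0.295 and 0.253. In KO mice 2 and 4, Psmb3 was at 0.435 and 0.369, above its control ratios, while Psma3 was at 0.119 and 0.149. The mean control ratio ran from 0.174 (Psma5) to 2.14 (Psmb2) over the core genes and from 0.542 (Psmc1) to 2.92 (Psmd7) over the regulatory genes. RefSeq names a pseudogene of Psma5 and a copy of Psme2, Psme2b, and the low values of these genes are uncertain because the treatment of reads that fit several places is not given in the sources used here. The region of each gene that was counted is not stated either, so the ratio is compared between genes only as it stands in the counts.

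**Figure D5:**
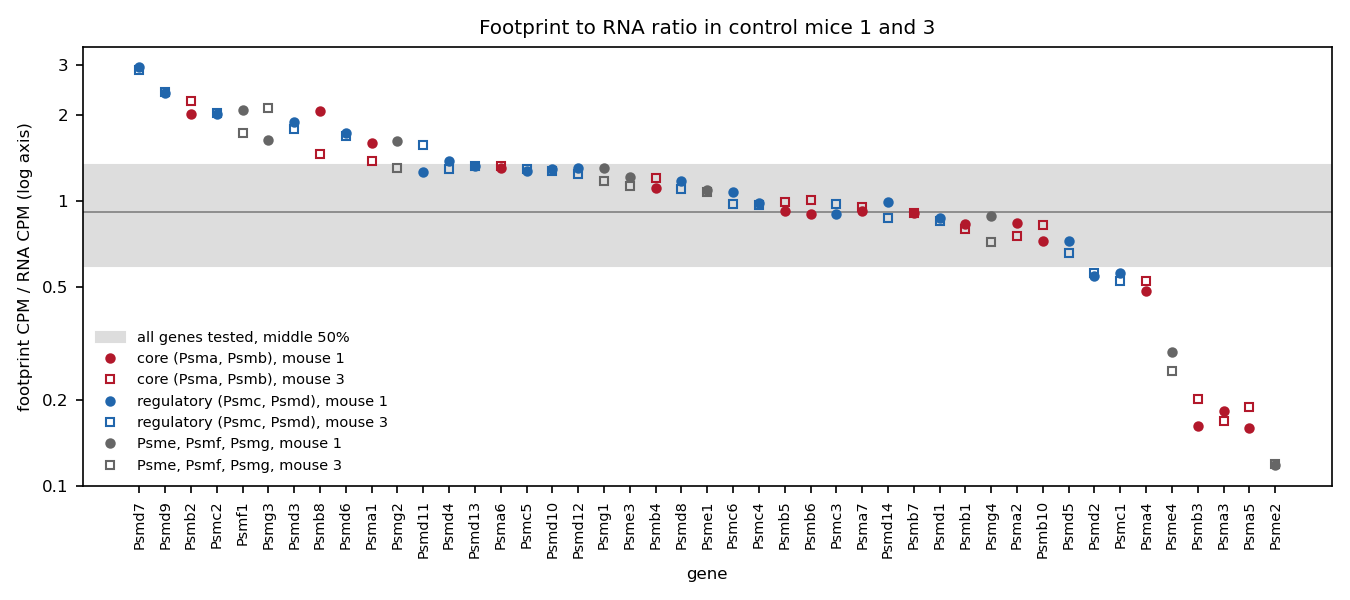
Footprint CPM divided by RNA CPM (y axis, log scale) for each of 45 proteasome genes (x axis, in descending order) in control mouse 1 (filled circles) and control mouse 3 (open squares), with the range between the quartiles of all 12145 genes in grey and their median as a line. Psmd7 is highest at 2.95 and 2.88, and Psmb3, Psma3, Psma5 and Psme2 form a low group under 0.21.

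Genes that work with the proteasome but carry other names were taken from a list of 34, of which 33 were in the table. In RNA, 1 of 33 was called (3.03%, against 7.51% of all genes), Shfm1 (Sem1, a small lid subunit), which was lower (-0.35 ± 0.07, adjusted p = 0.01). Shfm1 footprints were lower as well (-0.28 ± 0.06, adjusted p = 0.000117). In footprints 6 of 31 were called higher and 5 lower (35.5% together, against 25.7% of all genes). The higher ones were the core assembly factor Pomp (0.12), the proteasome-bound deubiquitinases Usp14 (0.17) and Uchl5 (0.25), the redox protein Txnl1 (0.19), the shuttle factor Ubqln1 (0.19) and the NF-Y subunit Nfyb (0.49). The lower ones were Shfm1, AI314180 (Ecm29, a clamp between core and regulatory particle, -0.15), the unfoldase Vcp (-0.20), the ubiquitin-activating enzyme Uba1 (-0.11) and Nfe2l1 (-0.12).

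In TE, 2 of 31 were called, both lower (6.45%, against 7.44% of all genes). Nfe2l1 was at -0.30 ± 0.08 (adjusted p = 0.0323), from an RNA log2 fold change of 0.16 that was not called (0.108) and the called fall in footprints (adjusted p = 0.0207). Nfya, the DNA-binding subunit of NF-Y, was at -0.66 ± 0.18 (adjusted p = 0.0312). The median log2 fold change of the list was 0.05 in RNA, 0.02 in footprints and -0.01 in TE. For the core genes the corresponding medians were -0.10, 0.14 and 0.25.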

How the data were processed

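The authors deposited 1 table of whole-number counts per gene, with no normalization, for 14 libraries. Bowtie2, STAR 2.5 and featureCounts (Subread 1.4.6) and the builds mm9 and mm10 are named, with no role or order, per the submitters' processing notes. The RNA libraries held 8847547 to 11371851 counts, the footprint libraries 4124065 to 6033030. RNA columns without a suffix, whose genes match those of the footprint columns, were used, and exon columns (16351772 to 20793293 counts) were an alternative.

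KO was compared with control separately for RNA and for footprint counts in edgeR 4.0.16 under R 4.3.3. The quasi-likelihood test (glmQLFTest, two-sided) was run on TMM-scaled counts of genes that filterByExpr kept at a minimum count of 10. TE was the interaction of genotype and assay in one edgeR model over all 14 libraries. P-values were adjusted over all genes by Benjamini and Hochberg's method. The script was tested on simulated data. CPM values are TMM-scaled within an assay. Mice 1 to 4 are the same animals in both assays by the labels. The deviations of the same mouse in the 2 assays correlated at -0.01 to 0.04 over 12145 genes. Wilson intervals cover counting error only.

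The members and lists were chosen with earlier results of these data known. Values in every library are given for the catalytic and immune beta genes and, in RNA, footprints and TE, for the 4 largest called rises and falls among members with at least 1 CPM. Alternatives were other scalings and tools, no filter, blocks, summed or fewer libraries, and leaving out each mouse.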

Additional observations from a re-analysis of the deposited data

Results flagged for a closer look

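In groups of 4 RNA libraries, 44 sets of values were searched for 1 library far from the other 3, and 4 were found. A chance level of 2.2 would assume independent sets of interchangeable libraries. It does not apply here, because KO mice 2, 4 and 7 were near-identical and summed sets share genes with single ones. Psmb7 RNA of KO mouse 5 was 204.8 CPM, against 175.1 to 176.7 CPM in the other KO mice. Psmd3 RNA of KO mouse 5 was 116.2 CPM, against 133.5 to 135.5 CPM. The summed RNA of the regulatory genes in KO mouse 5 was 3002 CPM, against 2783 to 2790 CPM. These 3 come from the same library, and the other KO libraries are the near-identical ones of mice 2, 4 and 7. Psma7 RNA of control mouse 8 was 141.6 CPM, against 125.1 to 126.5 CPM in the other controls. Groups of 3 footprint libraries were too small for this search.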

How the results depend on the processing

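Called members in RNA (9) fell to 0 with KO mice 2, 4 and 7 and control mice 1 and 3 summed and to 1 with only mice 5 to 8, and rose to 22 with only mice 1 to 4. They ranged from 2 to 14 without 1 mouse, lowest without mouse 2 and highest without control mouse 8. In footprints (18) they fell to 8 in a fit over all 14 libraries and to 13 with DESeq2 (1801 instead of 3123 genes), were 22 with plain library sizes, and ranged from 14 to 18 without 1 mouse. In TE (11) they were 7 with the title prefix as a block, 3 with the libraries summed, 18 with limma voom and 20 with the mouse as a replicate block, and ranged from 3 to 16 without 1 mouse. The title prefix block lost Psmb6 and Psmd11 in RNA (adjusted p 0.0529 and 0.0582). In TE it lost Psma1, Psmd7, Psmd13 and Psme3 (adjusted p 0.0545 to 0.0720). Plain library sizes moved the median of all genes to 0.07 in footprints, and 66.3% instead of 46.8% of called genes were then higher. The core minus regulatory difference in footprints was 0.10 by medians and 0.030 by means over genes. In TE it was 0.12, and 0.20 with the replicate block. The regulatory median in RNA turned from -0.05 to 0.012 with only mice 5 to 8, where the core median was -0.04 (-0.16 with only mice 1 to 4, -0.10 with all). The core share difference changed from -1.69 to -1.16 points in RNA and from 1.68 to 1.87 points in footprints without Psmb7, and to -1.55 and 2.09 points without Psmb7 and Psmc3, settings chosen after seeing the data. Without 1 mouse it ranged from -1.83 to -1.50 points in RNA and from 1.49 to 1.86 points in footprints. The cause of these shifts was not tested. There were 17 alternative fits in RNA, 12 in footprints and 19 in TE, some of them close to the main fit. Over the 578 pairs of a called gene and an alternative fit, the call was kept in 433 and lost in 145, and none changed direction. Psmb8, Psmb9 and Psme2 are limited by depth.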
